A study of Mus musculus with 13 samples.

Results

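Macrophage markers, a set of 10 genes, were described in interscapular brown adipose tissue (iBAT) of mice on a high-fat diet (HFD), out of 42416 gene identifiers in the count tables. These genes, Adgre1, Cd68, Csf1r, Lyz2, Cd14, Itgam, Mrc1, Cd163, Trem2 and Gpnmb, were chosen by name and found by matching the Ensembl identifiers to mouse symbols. All 10 were counted in all 13 libraries, and 9 of them passed the expression limit used for testing, which was more than 1 CPM (a gene's share of the counts of its library, scaled to a common total) in at least 5 libraries. Trem2 did not pass it. Of the libraries, 8 carried the label iFAXLKO, which stands for mice with loxP sites around Axl and a Cre transgene (loxP-Axl-loxP Cre+), and 5 carried the label WT, which stands for mice with the same floxed Axl and no Cre. The study's methods describe the transgene as a tamoxifen-inducible Cre (CreERT2) on a bacterial artificial chromosome with the adiponectin gene promoter, so recombination was directed to adipocytes and not to macrophages, and they name Cre-negative littermates as controls and adult female mice for tissue-specific deletion. Per the labels, both groups received HFD ad libitum and tamoxifen every 3 weeks at room temperature, and the WT libraries are therefore floxed, tamoxifen-treated controls and not untouched wild-type mice. Axl encodes a receptor tyrosine kinase that binds GAS6, and the design asks what brown fat transcribes when adipocytes lack it.

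Macrophages of adipose tissue take up dying cells and lipid, and they are usually divided into resident cells that lie along vessels and carry scavenger receptors, and lipid-associated cells that gather around stressed or dying adipocytes in obesity and switch on a lysosomal and lipid-handling programme. Their survival depends on signals through the receptor encoded by Csf1r, and the transcription factor PU.1 (Spi1) controls many of their genes. In whole brown fat they are a minority among adipocytes, endothelial cells and fibroblasts, so their transcripts are a small fraction of the RNA.

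The 13 libraries held 22437277 to 32595083 counts, at which 3 counts equal 0.092 to 0.134 CPM, and the least abundant marker, Trem2, was counted 6 to 31 times per library. Axl itself, the targeted gene, did not have a lower level in the libraries labelled iFAXLKO. Its mean was 33.1 ± 6.16 CPM (SD, n = 8) there and 27.8 ± 3.82 CPM (SD, n = 5) in WT. The fitted log2 fold change was 0.25 ± 0.13 (SE) at an adjusted p of 0.699 (edgeR quasi-likelihood test), and the mean of WT was exceeded in 6 of 8. The counts are of whole tissue and of the whole gene, and Axl is also transcribed outside adipocytes, so they give no measure of recombination. Directions below therefore refer to libraries by their labels, and the labels could not be checked with these counts. A pair of WT libraries stood apart: replicate 1 had the highest lymphocyte markers (23.9 CPM over 8 genes against 1.48 to 2.14 CPM in the other WT libraries), and replicate 2 had low counts of long genes, with a median log2 level, taken against the mean over the libraries, that differed by -0.68 between genes of at least 7450 and genes of up to 2336 exonic bases.

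No marker passed the test between the groups, although 8 of the 9 tested had a higher fitted level in the libraries labelled iFAXLKO. The call was an adjusted p under 0.05 in the edgeR quasi-likelihood test with Benjamini-Hochberg adjustment over 13360 genes, and 0 of 9 markers met it, beside 17 of all genes, or 0.127%, of which 13 were higher in the libraries labelled iFAXLKO, or 0.0973%. The adjusted p of the markers ran from 0.507 to 0.987, and DESeq2 also called 0, with a lowest adjusted p of 0.245, beside 0.501% of all genes. A log2 fold change above 0 was found for 46.4% of all genes. The 8 markers with such a value all lay at 0.3 or more, against 6.77% of all genes, and the median over the 9 was 0.43, against -0.01 over all genes. At an unadjusted p under 0.05, 6 of 9 markers were reached, against 7.38% of all genes, and all 6 were higher in the libraries labelled iFAXLKO, against 3.84% of all genes in that direction. That count depended on single libraries: it was 3 without WT replicate 2, 3 without iFAXLKO replicate 7, 2 without WT replicate 5 and 1 without both WT replicates 1 and 2. In the same order, 12%, 6.12%, 5.06% and 7.13% of all genes had an unadjusted p under 0.05 in these fits. The number of markers with a positive log2 fold change was 8 in each of them. The ranges of the groups overlapped for all 10 markers, and the ranges of 0.434% of all genes tested did not overlap. The libraries are whole tissue, so more macrophages and more marker RNA per macrophage cannot be told apart.

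**Figure D1:**
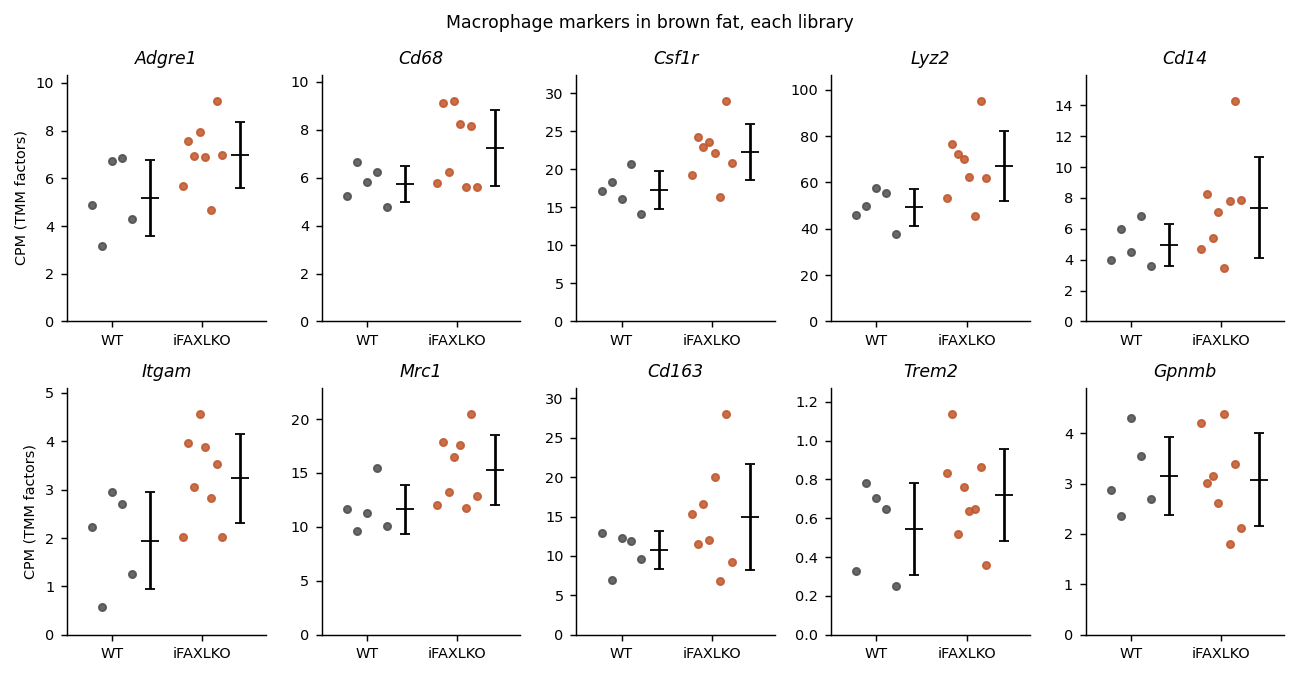
Levels of the 10 macrophage markers in CPM, with library sizes scaled by TMM factors, for each of the 5 WT libraries (grey) and 8 libraries labelled iFAXLKO (orange), where points within a group run in order of replicate number, and the black bar gives the mean and SD. The groups overlap in every panel, and the mean of the libraries labelled iFAXLKO lies above that of WT for 9 of 10 markers, Gpnmb being the exception.

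Among the markers shared by most macrophages, Csf1r had the smallest p. Csf1r (ENSMUSG00000024621) encodes the receptor for CSF1 and IL-34, on which macrophages depend for survival. Its level in the 5 WT libraries was 17.1, 18.4, 16.2, 20.7 and 14.1 CPM for replicates 1 to 5, and in the 8 libraries labelled iFAXLKO it ran from 16.3 to 29.0 CPM with a median of 22.5. Of these 8 libraries, 6 lay above every WT library, and iFAXLKO replicate 6 lay among the WT libraries. The means were 22.3 ± 3.73 (SD, n = 8) and 17.3 ± 2.47 CPM (SD, n = 5), which gave a fitted log2 fold change of 0.36 ± 0.12 (SE) at an unadjusted p of 0.00959 and an adjusted p of 0.507 (edgeR). An exact permutation test of the difference of means, 2-sided and over all 1287 arrangements of the group labels, gave p = 0.0171, where the smallest possible value is 0.00155. Among the libraries in the lower of 2 ranges of library number in the labels, the difference of mean log2 CPM was 0.33. It was 0.37 in the upper range, and what these ranges stand for is not stated. The lower range holds iFAXLKO replicates 1 to 4, and its only WT libraries are WT replicates 1 and 2. Values given below for the lower and upper library numbers are such differences and not fitted log2 fold changes. Exons of Csf1r overlap those of Hmgxb3 on the other strand, and whether counting used strand is not given in the sources used here. Hmgxb3 had means of 24.9 CPM in the libraries labelled iFAXLKO and 25.9 CPM in WT.

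Adgre1 (ENSMUSG00000004730, chr17:57358691-57483527) encodes F4/80, an adhesion receptor that is the classical surface marker of mouse macrophages. Gene positions here and below are those of the GENCODE annotation on GRCm38. The 5 WT libraries held 4.88, 3.17, 6.71, 6.84 and 4.30 CPM, and the libraries labelled iFAXLKO ran from 4.66 to 9.24 CPM with a median of 6.96. WT replicates 3 and 4 lay just below that median, and 6 of the 8 libraries labelled iFAXLKO lay above every WT library. WT replicate 2 was the lowest of all 13. The log2 fold change was 0.43 ± 0.19 (SE) at an adjusted p of 0.636 (edgeR), and the exact permutation p was 0.0497. It was 0.30 without WT replicate 2 and 0.23 without WT replicates 1 and 2. The difference of mean log2 CPM was 0.81 among the lower library numbers, which hold both of those libraries, and 0.21 among the upper ones.

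Cd68 (ENSMUSG00000018774, chr11:69664213-69666153) encodes a heavily glycosylated protein of late endosomes and lysosomes. Its WT levels were 5.24, 6.65, 5.82, 6.23 and 4.76 CPM, and the libraries labelled iFAXLKO ran from 5.61 to 9.21 CPM with a median of 7.20. Of the 8 libraries, 4 lay above 8 CPM, beyond every WT library, and the other 4 lay within the WT range. The log2 fold change was 0.34 ± 0.15 (SE) at an adjusted p of 0.647 (edgeR), and the exact permutation p was 0.0932, with 0.33 and 0.28 in the lower and upper library numbers.

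Of the genes transcribed more widely in myeloid cells, Lyz2 was the most abundant marker and Itgam had the largest log2 fold change of the 9 tested. Lyz2 (ENSMUSG00000069516, chr10:117277331-117282321) encodes the lysozyme of macrophages and neutrophils. The 5 WT libraries held 45.9, 49.9, 57.5, 55.6 and 37.7 CPM, and the libraries labelled iFAXLKO ran from 45.5 to 95.1 CPM with a median of 66.3. Of these 8 libraries, 6 lay above every WT library, and iFAXLKO replicate 7 stood highest. The log2 fold change was 0.44 ± 0.15 (SE) at an unadjusted p of 0.0108 and an adjusted p of 0.512 (edgeR), and the exact permutation p was 0.0264, with 0.49 and 0.37 in the lower and upper library numbers. Lyz1, a near-identical gene next to it, had means of 2.02 ± 0.757 CPM (SD, n = 8) in the libraries labelled iFAXLKO and 0.868 ± 0.278 CPM (SD, n = 5) in WT, with a log2 fold change of 1.20 (adjusted p = 0.340, edgeR), and the split of reads between the 2 genes is uncertain.

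Cd14 (ENSMUSG00000051439) encodes the co-receptor that hands bacterial lipopolysaccharide to TLR4. Its WT levels were 3.96, 6.00, 4.47, 6.80 and 3.58 CPM, and the libraries labelled iFAXLKO ran from 3.48 to 14.3 CPM with a median of 7.47. Of these 8 libraries, 5 lay above every WT library. iFAXLKO replicate 7 was far above the rest, and iFAXLKO replicate 5 was the lowest of all 13. The log2 fold change was 0.57 ± 0.28 (SE) at an adjusted p of 0.699 (edgeR), and the exact permutation p was 0.109. It was 0.36 without iFAXLKO replicate 7, and the lower and upper library numbers gave 0.34 and 0.63.

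Itgam (ENSMUSG00000030786, chr7:128062640-128118491) encodes CD11b, the integrin chain of complement receptor 3 on monocytes, macrophages and neutrophils. The 5 WT libraries held 2.23, 0.565, 2.94, 2.71 and 1.26 CPM, and the libraries labelled iFAXLKO ran from 2.03 to 4.56 CPM with a median of 3.30. All 8 lay above the WT mean of 1.94 CPM, which includes the low value of WT replicate 2, and 3 of the 8 lay within the WT range. The log2 fold change was 0.72 ± 0.32 (SE) at an unadjusted p of 0.0371 and an adjusted p of 0.633 (edgeR), and the exact permutation p was 0.0435. It was 0.49 without WT replicate 2 and 0.48 without WT replicates 1 and 2. The lower library numbers, whose only WT libraries are these 2, gave 1.45, and the upper ones gave 0.45. Exons of Itgam overlap those of Gm49368 on the same strand, whose means were 2.15 and 1.25 CPM, so reads of the 2 genes cannot be separated here.

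The resident and the lipid-associated type were each represented by 2 markers. Mrc1 encodes the mannose receptor CD206 and Cd163 the haemoglobin-haptoglobin receptor, and both are typical of resident adipose macrophages. Trem2 encodes a lipid-sensing receptor and Gpnmb a glycoprotein of lysosomes, and both are typical of lipid-associated macrophages. The promoters of these 4 genes are shown because the comparison of the 2 types turns on them. They are RefSeq sequences of GRCm38.p6, each of 300 bases on the plus strand, from 250 bases before the start of transcription to 50 after it, with the core motif bound by PU.1 in capitals (GAGGAA, or TTCCTC when read from the other strand). The windows are chr2:14229164-14229463 for Mrc1, chr6:124304401-124304700 for Cd163, chr17:48346151-48346450 for Trem2 and chr6:49036268-49036567 for Gpnmb.
Mrc1: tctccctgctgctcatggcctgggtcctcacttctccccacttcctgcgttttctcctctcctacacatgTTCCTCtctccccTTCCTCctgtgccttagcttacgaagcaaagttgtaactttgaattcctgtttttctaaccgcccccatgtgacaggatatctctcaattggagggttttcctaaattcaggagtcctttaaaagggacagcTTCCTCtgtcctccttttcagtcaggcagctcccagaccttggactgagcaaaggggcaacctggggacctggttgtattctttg
Cd163: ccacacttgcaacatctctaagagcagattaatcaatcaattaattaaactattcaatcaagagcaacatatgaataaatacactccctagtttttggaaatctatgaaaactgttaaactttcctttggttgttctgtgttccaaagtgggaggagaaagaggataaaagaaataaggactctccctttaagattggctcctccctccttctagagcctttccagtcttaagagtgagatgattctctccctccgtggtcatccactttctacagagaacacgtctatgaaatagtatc
Trem2: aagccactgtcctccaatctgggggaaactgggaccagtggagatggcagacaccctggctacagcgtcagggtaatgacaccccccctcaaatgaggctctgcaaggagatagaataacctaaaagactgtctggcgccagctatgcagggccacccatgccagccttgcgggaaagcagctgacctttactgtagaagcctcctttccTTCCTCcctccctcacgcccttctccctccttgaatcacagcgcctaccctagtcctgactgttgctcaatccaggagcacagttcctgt
Gpnmb: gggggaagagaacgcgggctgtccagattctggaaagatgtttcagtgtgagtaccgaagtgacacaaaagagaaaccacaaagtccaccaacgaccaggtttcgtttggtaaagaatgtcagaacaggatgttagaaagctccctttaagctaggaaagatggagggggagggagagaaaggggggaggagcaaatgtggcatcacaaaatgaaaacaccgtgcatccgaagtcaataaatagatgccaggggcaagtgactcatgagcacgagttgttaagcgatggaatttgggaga

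The Mrc1 window holds the motif 3 times and the Trem2 window once, all 4 as TTCCTC, and the windows of Cd163 and Gpnmb hold no match. The motif was thus found in 1 gene of each type. Promoters of 7 of the 10 markers were matched, and 4 of the 7 hold the motif on either strand (Cd68, Itgam, Mrc1 and Trem2), where 28.3% of 27025 mouse promoters of the same length do. A match to a short motif is a description of the sequence and shows no binding.

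Mrc1 (ENSMUSG00000026712, chr2:14229392-14332057) had WT levels of 11.6, 9.65, 11.3, 15.4 and 10.1 CPM, and the libraries labelled iFAXLKO ran from 11.7 to 20.4 CPM with a median of 14.8. All 8 lay above the WT mean and above 4 of the 5 WT libraries, and WT replicate 4 lay in the middle of them. The means were 15.3 ± 3.25 (SD, n = 8) and 11.6 ± 2.28 CPM (SD, n = 5), and the fitted log2 fold change was 0.39 ± 0.15 (SE) at an unadjusted p of 0.0210 and an adjusted p of 0.570 (edgeR), and the exact permutation p was 0.0528, with 0.47 and 0.34 in the lower and upper library numbers. It was 0.33 without WT replicate 2 and 0.32 without WT replicates 1 and 2.

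Cd163 (ENSMUSG00000008845, chr6:124304656-124330527) had WT levels of 12.9, 7.00, 12.3, 11.9 and 9.61 CPM, and the libraries labelled iFAXLKO ran from 6.84 to 28.0 CPM with a median of 13.7. The lowest and the highest of all 13 libraries, iFAXLKO replicates 6 and 7, both belonged to that group, whose SD was 6.73 CPM against 2.44 CPM in WT. The log2 fold change was 0.47 ± 0.29 (SE) at an adjusted p of 0.753 (edgeR), and the exact permutation p was 0.205. It was 0.28 without iFAXLKO replicate 7, 0.36 without WT replicate 2 and 0.41 without WT replicates 1 and 2, and the lower and upper library numbers gave 0.52 and 0.29.

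Trem2 (ENSMUSG00000023992, chr17:48346401-48354147) was near the limit of what these libraries can count. Its WT levels were 0.327, 0.782, 0.706, 0.649 and 0.253 CPM, and the libraries labelled iFAXLKO ran from 0.358 to 1.14 CPM with a median of 0.704. WT replicates 1 and 5 were the lowest of all 13 libraries and iFAXLKO replicate 2 the highest, and the rest intermixed. The mean was 0.719 ± 0.237 CPM (SD, n = 8) against 0.544 ± 0.238 CPM (SD, n = 5), and the log2 ratio of the means was 0.40 (exact permutation p = 0.219). The ratio was 0.22 without WT replicate 5 and 0.57 without WT replicate 2. The difference of mean log2 CPM was 0.55 in the lower and 0.25 in the upper library numbers.

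Gpnmb (ENSMUSG00000029816, chr6:49036546-49070929) was the marker with no higher mean in the libraries labelled iFAXLKO. The 5 WT libraries held 2.88, 2.35, 4.29, 3.55 and 2.698 CPM, and the libraries labelled iFAXLKO ran from 1.795 to 4.37 CPM with a median of 3.08. Only iFAXLKO replicate 5 lay above the highest WT library, and 3 of the 8 lay above the WT mean. The means were 3.08 ± 0.915 (SD, n = 8) and 3.15 ± 0.774 CPM (SD, n = 5), and the fitted log2 fold change was -0.04 ± 0.22 (SE) at an adjusted p of 0.987 (edgeR), and the exact permutation p was 0.875. The sign was not stable, with differences of mean log2 CPM of 0.29 in the lower and -0.33 in the upper library numbers. The fitted value was -0.13 without WT replicate 2 and -0.20 without WT replicates 1 and 2.

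**Figure D2:**
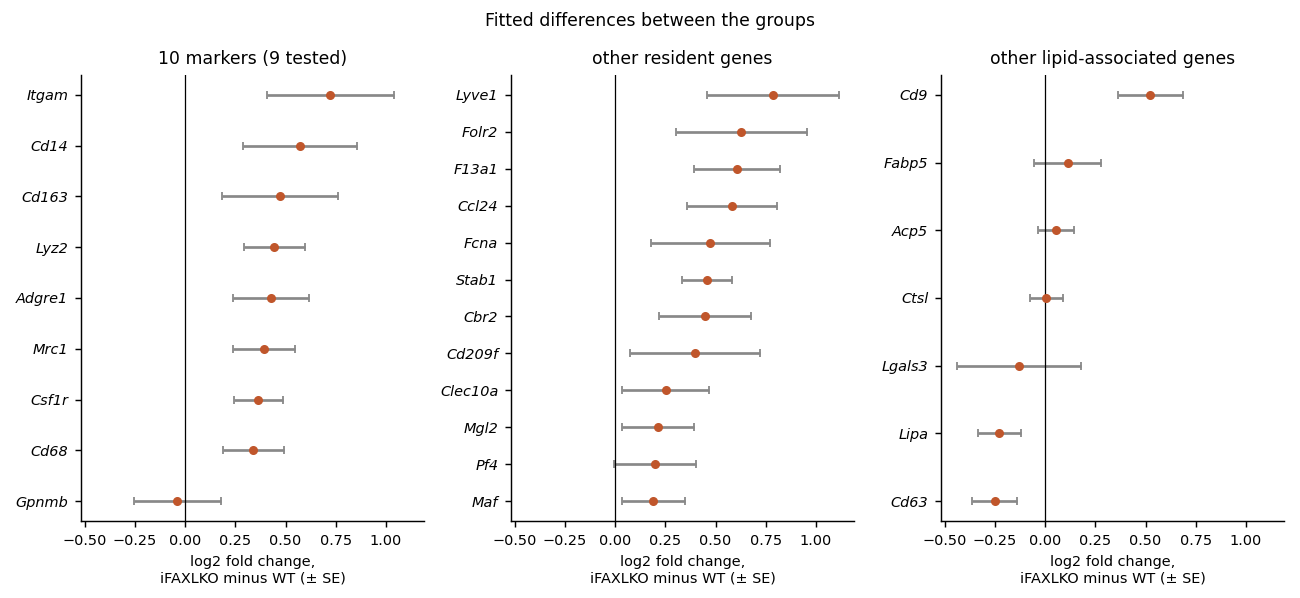
Fitted log2 fold changes, libraries labelled iFAXLKO minus WT, with their SE, for the 9 markers tested (left), 12 further resident macrophage genes (middle) and 7 further lipid-associated genes (right). The vertical line marks no difference. Of the 9 markers, 8 and all 12 further resident genes lie to the right of the line, while Gpnmb lies at -0.04 and the lipid-associated genes lie on both sides, and none passed the adjusted limit.

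Within each library, the lipid-associated pair was set against the resident pair by subtracting the mean log2 CPM of Mrc1 and Cd163 from that of Trem2 and Gpnmb. This difference was -3.52, -2.51, -2.698, -3.07 and -3.36 in the 5 WT libraries, and from -3.73 to -2.79 with a median of -3.33 in the libraries labelled iFAXLKO. The groups overlapped over most of their range, with means of -3.24 ± 0.33 (SD, n = 8) and -3.03 ± 0.43 (SD, n = 5), and 5 of 8 lay below the WT mean. The gap of -0.21 became -0.08 without WT replicate 2 and -0.33 without WT replicate 1, so it rested in part on libraries that stood apart.

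The 2 lipid-associated markers gave different values in this comparison. Trem2 minus Mrc1 averaged -4.30 ± 0.39 (SD, n = 8) in the libraries labelled iFAXLKO and -4.32 ± 0.63 (SD, n = 5) in WT, a difference of 0.02. Trem2 minus Cd163 also differed by 0.02 between the groups. Gpnmb minus Mrc1 averaged -2.31 ± 0.42 (SD, n = 8) and -1.87 ± 0.28 (SD, n = 5), a difference of -0.44 with 7 of 8 below the WT mean, and Gpnmb minus Cd163 averaged -2.19 ± 0.38 (SD, n = 8) and -1.74 ± 0.25 (SD, n = 5), a difference of -0.44 with 8 of 8 below it. The WT values of Gpnmb minus Cd163 were -2.14, -1.54, -1.51, -1.72 and -1.801, and those of the libraries labelled iFAXLKO ran from -3.02 to -1.85 with a median of -2.13, so that only WT replicate 1 lay among the latter. No test was made of these differences between markers. Without logarithms, the summed CPM of Trem2 and Gpnmb was 0.129 ± 0.0278 (SD, n = 8) of that of Mrc1 and Cd163 in the libraries labelled iFAXLKO and 0.167 ± 0.0326 (SD, n = 5) in WT. That sum is mostly Gpnmb, which averaged 3.08 CPM in the libraries labelled iFAXLKO and 3.15 CPM in WT. Trem2 averaged 0.719 and 0.544 CPM, so the summed ratio says little about Trem2.

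**Figure D3:**
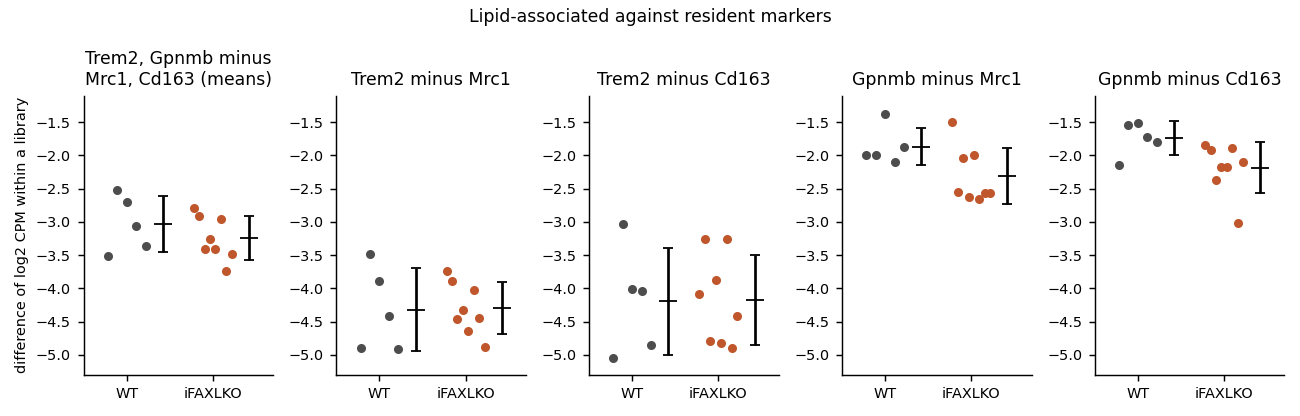
Differences of log2 CPM within each library between lipid-associated (Trem2, Gpnmb) and resident (Mrc1, Cd163) markers, first as means of each pair and then for the 4 single pairs, in WT (grey) and libraries labelled iFAXLKO (orange), with mean and SD in black. The Trem2 panels have nearly equal group means, and the Gpnmb panels differ by -0.44 between groups.

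The markers were also taken as ratios to Csf1r in the same library, and no test was made of these ratios. Adgre1 stood at 0.313 ± 0.0178 of the CPM of Csf1r (SD, n = 8) in the libraries labelled iFAXLKO and 0.302 ± 0.0876 (SD, n = 5) in WT, and Mrc1 at 0.685 ± 0.0724 and 0.674 ± 0.0866. Lyz2 stood at 2.99 ± 0.192 and 2.87 ± 0.390 times Csf1r. Gpnmb stood at 0.140 ± 0.0442 and 0.185 ± 0.0508. For these 4 markers the group difference was smaller than the SD of WT. Cd14 stood at 0.329 ± 0.118 and 0.284 ± 0.0430, a difference slightly larger than the SD of WT and smaller than that of the libraries labelled iFAXLKO. The range of Cd14 in those libraries, 0.157 to 0.493, enclosed that of WT, 0.232 to 0.328. Itgam stood at 0.146 ± 0.0356 and 0.113 ± 0.0564. Without WT replicate 2 the WT mean was 0.334 for Adgre1 and 0.711 for Mrc1, above that of the libraries labelled iFAXLKO, and it was 0.199 ± 0.0455 (SD, n = 4) for Gpnmb.

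The markers varied together from library to library. After the group means were subtracted, the 36 pairs of the 9 tested markers had Pearson correlations of log2 CPM from -0.35 to 0.91 over the 13 libraries, with a median of 0.54 and 19 above 0.5. Csf1r and Lyz2 formed the closest pair (0.91), and Gpnmb went most closely with the resident marker Cd163 (0.79). Cd14 had the least in common with the others and its correlation with Gpnmb was the lowest (-0.35). All pairs share the same libraries, their scaling and the library features named above, so these values describe the 13 libraries only.

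iFAXLKO replicate 7 had the highest level of 6 of the 10 markers, and iFAXLKO replicate 2 was among the top 3 libraries for 8. WT replicate 5 had the lowest level of 4 markers and was among the bottom 3 for 8, while WT replicate 2 was lowest for Adgre1, Itgam and Mrc1. iFAXLKO replicate 6 was lowest for Cd163 and Gpnmb and among the bottom 3 for 5 markers. The summed level of the 10 markers was 88.4 to 130 CPM in WT and 104 to 212 CPM in the libraries labelled iFAXLKO, 7 of which lay above the WT mean.

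**Figure D4:**
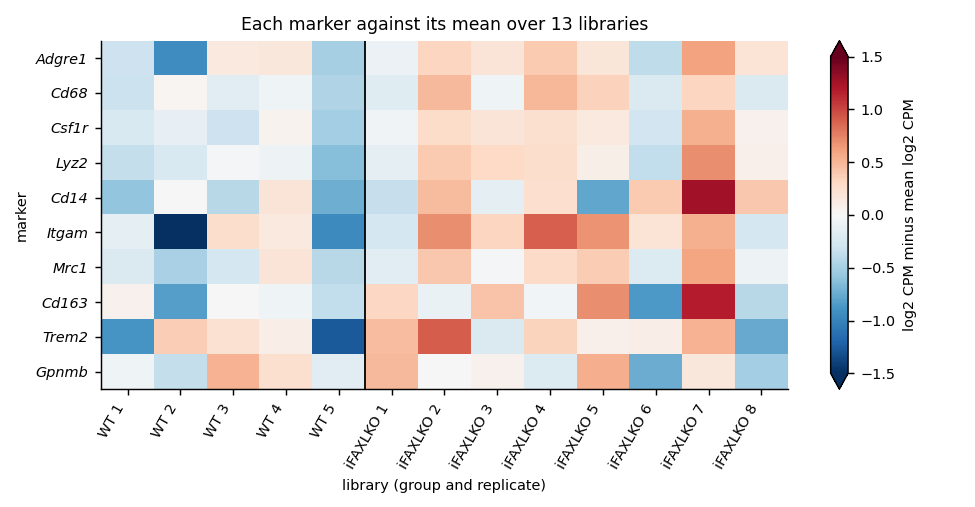
Log2 CPM of each marker minus its mean over the 13 libraries, with rows ordered by role (shared, myeloid, resident, lipid-associated) and a line between the 5 WT and the 8 libraries labelled iFAXLKO. The colour scale ends at -1.5 and 1.5. iFAXLKO replicate 7 is high and WT replicate 5 low in most rows, and WT replicate 2 is low for Itgam and Adgre1 but not for Cd68, Cd14 or Trem2.

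In WT replicate 2 the markers mostly divided by the length of the longest coding transcript, a different measure from the exonic length used above for all genes. By exonic length they did not divide in this way, since Trem2 has 4946 exonic bases and Itgam 5024. The 4 markers with longest coding transcripts of 1088 to 1641 bases had higher CPM there than the mean of the other 4 WT libraries. The ratios were 1.62 for Trem2, 1.21 for Cd68, 1.01 for Lyz2 and 1.28 for Cd14. Of the 6 markers with transcripts of 3238 to 5374 bases, 5 had ratios below 1, namely Adgre1 (0.559), Gpnmb (0.699), Cd163 (0.599), Itgam (0.247) and Mrc1 (0.796), and Csf1r (1.08) did not. In a further fit, each library's trend over exonic length was removed. It gave log2 fold changes of 0.43 for Adgre1, 0.73 for Itgam and 0.39 for Mrc1, and called 0 markers. Since the markers did not divide by exonic length, that fit cannot show whether the division by transcript length affects these values, which was not tested. With WT replicate 2 left out, the log2 fold changes were 0.30 for Adgre1, 0.49 for Itgam and 0.33 for Mrc1.

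**Figure D5:**
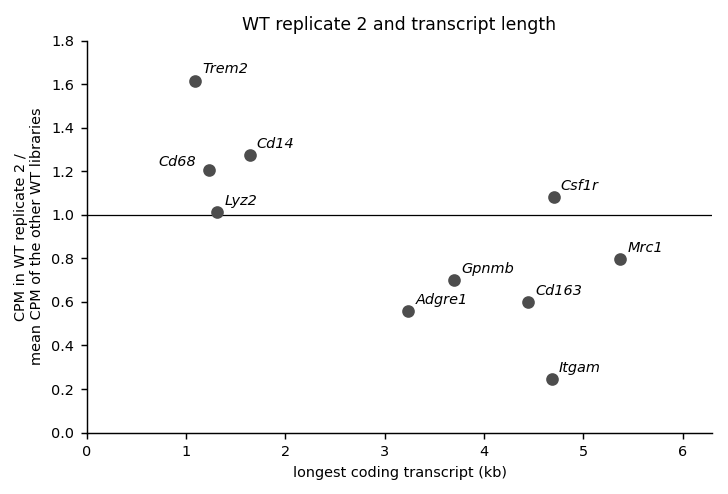
Level of each marker in WT replicate 2 divided by the mean of the other 4 WT libraries, against the length of its longest protein-coding transcript in kilobases, where the horizontal line marks equal levels. The 4 short markers lie at or above the line, and 5 of the 6 long ones lie below it, Itgam lowest at 0.247.

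Divided by the length of the longest coding transcript, the mean levels over the 13 libraries gave an order that was clear at the top and not between all neighbours. Lyz2 stood far above the rest at 45.8 ± 11.7 CPM per kilobase (SD, n = 13) and its range did not overlap that of any other marker. Cd68 followed at 5.42 ± 1.22, Csf1r at 4.33 ± 0.864 and Cd14 at 3.92 ± 1.76. Cd163 stood at 3.00 ± 1.29, Mrc1 at 2.58 ± 0.625 and Adgre1 at 1.94 ± 0.516 CPM per kilobase. Gpnmb (0.840 ± 0.224), Trem2 (0.599 ± 0.224) and Itgam (0.585 ± 0.239) were lowest, so both lipid-associated markers lay below both resident ones. From Cd68 down, the ranges of neighbours overlapped. Within single libraries Cd68 was above Csf1r, Mrc1 above Adgre1 and Adgre1 above Gpnmb in 13 of 13, whereas Cd163 was above Mrc1 in 7 of 13 and Trem2 above Itgam in 6 of 13, so these neighbours had no fixed order.

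Other genes of the macrophage were read from lists, in the same fit, and no gene of any list passed the adjusted limit in edgeR. The lists were chosen with earlier results of these data known. For every list count here and below, the shares over all genes are 46.4% for a positive log2 fold change and 7.38% for an unadjusted p under 0.05. In the higher direction the latter share is 3.84%. DESeq2 called Lum and Dcn among the listed genes named here. Of 15 companion genes of macrophages and other leukocytes, 14 were tested, 13 had a positive log2 fold change, 5 of them with an unadjusted p under 0.05, and the median was 0.31. C1qa, which encodes a chain of complement C1q, had a fitted difference of 0.44 ± 0.16 on the log2 scale (SE, adjusted p of 0.537 by edgeR), and Fcgr3, an IgG receptor, had 0.44 ± 0.16 (SE, adjusted p of 0.537 by edgeR). C1qc had 0.40 ± 0.16. Ptprc, the general leukocyte marker CD45, had -0.09 ± 0.39 (SE), and its highest library was WT replicate 1, at 19.4 CPM. Without that library the WT mean was 4.51 ± 1.502 CPM (SD, n = 4) against 7.05 CPM in the libraries labelled iFAXLKO, a log2 ratio of 0.65. That WT mean still includes WT replicate 2, which at 2.48 CPM was the lowest of all 13 libraries, so the ratio also depends on single libraries.

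Of 14 further resident macrophage genes, 12 were tested and all 12 had a positive log2 fold change, 4 of them with an unadjusted p under 0.05, and the median was 0.45. Stab1, a scavenger receptor, had means of 58.8 ± 7.88 (SD, n = 8) and 42.8 ± 8.79 CPM (SD, n = 5), and the fitted log2 fold change was 0.46 ± 0.13 (SE, adjusted p of 0.381 by edgeR). F13a1, the A chain of coagulation factor XIII, had 0.61 ± 0.21 (SE, adjusted p of 0.513 by edgeR), and the eotaxin Ccl24 had 0.58 ± 0.23. Timd4, a phosphatidylserine receptor of long-lived resident macrophages, averaged 0.524 and 0.366 CPM and was not tested.

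Of 12 further lipid-associated genes, 7 were tested, 4 had a positive and 3 a negative log2 fold change, and the median was 0.01, with 1 higher and 2 lower at an unadjusted p under 0.05. The tetraspanin Cd9 had 0.52 ± 0.16 (SE, adjusted p of 0.462 by edgeR), whereas Cd63, another tetraspanin, had -0.25 ± 0.11 and Lipa, the lysosomal acid lipase, had -0.23 ± 0.11. Lipa, Ctsl, Acp5 and Fabp5 are transcribed in many cells of adipose tissue and each averaged over 38 CPM in both groups, so their levels are not levels of this cell type. The genes most closely tied to it were near the lower limit, with Spp1 at 0.237 and 0.120 CPM, Mmp12 at 0.232 and 0.350 CPM and Itgax at 0.662 and 0.543 CPM in the libraries labelled iFAXLKO and in WT.

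Signals that draw and feed macrophages formed the next list, of which 7 of 10 genes were tested and 6 had a positive log2 fold change, with a median of 0.24 and 1 gene, Ccr2, at an unadjusted p under 0.05. Ccr2, the chemokine receptor of recruited monocytes, had a mean of 3.71 ± 0.763 CPM (SD, n = 8) against 2.46 ± 0.771 CPM (SD, n = 5), and the fitted log2 fold change was 0.59 ± 0.19 (SE, adjusted p of 0.490 by edgeR). The growth factor receptor chain Csf2rb had 0.52 ± 0.26, and Il34, a ligand of the Csf1r product, had 0.24 ± 0.13. The ligand Ccl2 averaged 1.17 and 0.847 CPM and was not tested.

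Of 12 genes of inflammatory activation, 5 were tested, 3 with a positive and 2 with a negative log2 fold change and a median of 0.03, and 0 had an unadjusted p under 0.05. Ly96, which encodes the MD-2 partner of TLR4, had -0.34 ± 0.18 and Tlr2 had 0.28 ± 0.22. Tnf (0.213 and 0.204 CPM), Il1b (0.146 and 0.188 CPM) and Il6 (0.00458 and 0.00764 CPM) were at or near the level of a few counts in both groups, and no difference in them was detectable at this depth. Of 9 genes of scavenging and dead-cell uptake, 6 were tested, 4 with a positive log2 fold change and a median of 0.20. Pros1, a ligand of the receptor family of Axl and the 1 gene with an unadjusted p under 0.05, had 0.26 ± 0.12 (SE, adjusted p of 0.642 by edgeR), and Mfge8, a bridge to dying cells, had -0.16 ± 0.11.

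Of the lists for other cell types, the fibroblast list had the largest median. All 8 fibroblast genes had a positive log2 fold change with an unadjusted p under 0.05, and their median was 0.71. Lum had 0.72 ± 0.15 (SE, adjusted p of 0.122 by edgeR), Dcn had 0.41 ± 0.09 (SE, adjusted p of 0.163 by edgeR) and Mfap5 had 0.77 ± 0.25. The summed level of the 8 genes was 462 to 1003 CPM in the libraries labelled iFAXLKO and 332 to 580 CPM in WT, and its part in the marker values was not tested. All 5 mast cell genes were tested and had a positive log2 fold change (median 0.49), with Cma1, the 1 gene with an unadjusted p under 0.05, at 0.49 ± 0.22, Cpa3 at 0.59 ± 0.28 and Mcpt4 at 0.40 ± 0.22, and they summed to 26.0 to 36.9 CPM against 16.9 to 32.0 CPM. Their part was not tested either.

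The defining genes of other myeloid cells were read in the same way. Of 5 neutrophil genes only Csf3r was tested (0.27 ± 0.23), and it averaged 1.17 and 0.960 CPM in the libraries labelled iFAXLKO and in WT. Ly6g was at 0 in all libraries labelled iFAXLKO and at most 0.0588 CPM in WT, and S100a8 averaged 0.121 and 0.234 CPM. The part of neutrophils in Lyz2 and Itgam was not tested. Of 5 monocyte genes only Ace was tested (0.15 ± 0.13), which endothelial cells also express and which averaged 21.6 and 19.5 CPM, and Ly6c2 averaged 0.114 and 0.156 CPM. Of 6 dendritic cell genes 2 were tested, Cd209a at 0.82 ± 0.28 (SE, adjusted p of 0.512 by edgeR) and Zbtb46, which endothelial cells also express, at -0.04 ± 0.11 with means of 25.8 and 26.6 CPM, and Xcr1 averaged 0.255 and 0.111 CPM. None of the 8 lymphocyte genes was tested, and they summed to 2.18 to 8.15 CPM in the libraries labelled iFAXLKO and 1.48 to 23.9 CPM in WT, where replicate 1 was highest.

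Of the cells that make up most of the tissue, the 9 brown adipocyte genes had 8 negative log2 fold changes and a median of -0.08, with Elovl3, a fatty acid elongase, at -0.69 ± 0.21 (SE, adjusted p of 0.474 by edgeR), Ucp1 at -0.19 ± 0.14 and Cox8b at -0.16 ± 0.17. The 5 endothelial genes had 4 positive values and a median of 0.15, with Cdh5 at 0.21 ± 0.13, Tek at 0.22 ± 0.16 and Pecam1 at 0.15 ± 0.13. The 10 skeletal muscle genes had 10 negative values and a median of -0.27, with Mylpf at -0.45 ± 1.08, Pvalb at -0.46 ± 1.15 and Myh4 at -0.44 ± 1.25, and their sum ran from 2.83 to 5538 CPM over the libraries. With the muscle level as a covariate, the log2 fold changes of the markers were 0.38 for Csf1r, 0.46 for Lyz2, 0.42 for Mrc1 and 0.51 for Cd163, and 0 markers were called.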

How the data were processed

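Total RNA of snap-frozen iBAT was extracted and made into TruSeq libraries of polyA RNA, per the labels, with 1 library per sample and 22437277 to 32595083 counts each. The deposited files hold whole-number counts per Ensembl gene, which the authors made from their reads. The submitters' processing notes name bcl2fastq 2.20, fastp 0.20.0, STAR 2.7.4a, DESeq2 and GRCm38.p6. The study's methods describe RNA sequencing with rRNA depletion in place of polyA selection and with other tools, and the counting tool and its use of strand are not given in the sources used here. The labels speak of mice but do not say that each library is a separate animal, and p-values then measure only the spread between these samples.

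The counts were fitted with edgeR 4.0.16 (TMM factors, robust quasi-likelihood, 2-sided, more than 1 CPM in at least 5 libraries), without covariates, in R 4.3.3. The SE is the log2 fold change divided by the root of F. Single values were tested by exact permutation (scipy 1.17.1). Log2 CPM used a prior count of 2. Symbols and lengths came from GENCODE M21 for 42263 identifiers. The procedure was tested on simulated data. Alternatives were DESeq2 1.42.0, limma 3.58.1 (voom), other scalings, filters and covariates, and leaving out libraries. All other genes named were the up to 3 of each list with the smallest p, those that define a list and lie at or near 0, overlapping genes, the paralog Lyz1 of Lyz2 and the 5 genes most like the markers. Ptprc, Timd4, Ccl2, Itgax, Mmp12, Xcr1 and the broadly transcribed Ctsl, Acp5 and Fabp5 were named after their values were seen. The markers and all lists were chosen with earlier results of these data known. No 2 libraries of a group agreed within sampling noise (lowest chi-square per degree of freedom 15.26). Counting limits cover counting error only.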

Additional observations from a re-analysis of the deposited data

Results flagged for a closer look

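The levels of 5 groups held a library that stood apart from the rest by Dixon's criterion at the 95% level, out of 54 groups examined, and chance alone marks about 1 in 20. Cd14 reached 14.3 CPM in iFAXLKO replicate 7, where the other 7 libraries of the group lay between 3.48 and 8.24 CPM. The summed companion genes of macrophages were 93.5 CPM in WT replicate 5 and 120.5 to 128.6 CPM in the other WT libraries. The summed lymphocyte genes were 8.15 CPM in iFAXLKO replicate 3, against 2.18 to 4.02 CPM in the rest of that group, and 23.9 CPM in WT replicate 1, against 1.48 to 2.14 CPM. The summed brown adipocyte genes were 24980 CPM in WT replicate 2 and 16780 to 18200 CPM in the other WT libraries.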

How the results depend on the processing

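No macrophage marker was called under any of the 13 alternatives that leave out 1 library and the 13 others, and 9 of the 10 kept the sign of their difference in all of those run. For Gpnmb the log2 fold change of -0.04 turned to 0.14 with the replicate number as a block, and to 0.11, 0.0057, 0.00080, 0.044 and 0.024 without WT replicate 3, WT replicate 4, iFAXLKO replicate 4, iFAXLKO replicate 6 and iFAXLKO replicate 8, with a lowest value of -0.13 when single libraries were left out. The count of markers with an unadjusted p under 0.05 ran from 1 to 7 of 9 over the alternatives, beside 5.06% to 12% of all genes. It was 2 with limma-voom and sample quality weights, beside 11.4% of all genes. That fit gave WT replicate 2 the lowest weight (0.170) and lowered Adgre1 to 0.23, Itgam to 0.46, Mrc1 to 0.25 and Cd163 to 0.20. The difference of lipid-associated and resident markers stayed between -0.33 and -0.08 when single libraries were left out, and Trem2 between 0.22 and 0.57. The 17 genes called in all became 67 with DESeq2 and 7 with the replicate block, and 14 to 19 without single libraries. The deviations of same-numbered libraries had correlations of 0.389, 0.423, 0.194, 0.183 and -0.612, with 2 of 5 closest to their own number. Since 1 pair went the other way and no label ties the numbers together, they were not taken to pair the samples. Under the block Cd14 was 0.20 and Itgam 0.92. No WT library has the number of iFAXLKO replicates 6 to 8, so the group difference under the block rests on replicates 1 to 5 only. Fits without WT replicates 1 and 2 and with the length trend removed, as well as the Ptprc and Csf1r ratio values without 1 WT library, were added after the data were seen. Other genes that turned sign were Cox8b (0.032 with the block, 0.062 with limma-voom, 0.020 without WT replicates 1 and 2, and -0.25 to 0.084 without single libraries), Myh4 (0.44), Mylpf (0.45) and Pvalb (0.57) without WT replicates 1 and 2, Pvalb and Zbtb46 without single libraries (-1.02 to 0.035 and -0.14 to 0.032) and Nos2 with the block (-0.069), and the cause was not tested. Among the listed genes Lum (0.73) and Dcn (0.41) were called with DESeq2, and Lum without WT replicate 4 (0.85). Depth limits Trem2, Tnf, Il1b and Il6.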

Other observations

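The genes whose log2 CPM, after subtraction of the group means, went most closely with the mean standardised level of the 9 tested markers over the 13 libraries were F13a1 (Pearson r = 0.93), which is also in the resident list, the adhesion receptor Adgre5 (0.92), the plexin Plxnb2 (0.92), the hyaluronan receptor Cd44 (0.92) and the small GTPase Rab7b (0.92). They were picked from 13360 genes, and all points share library scaling. Their log2 fold changes between the libraries labelled iFAXLKO and WT were 0.61, 0.10, 0.22, 0.35 and 0.32, and none was called. Among the markers themselves, which contribute to that mean, r was 0.93 for Mrc1 and 0.90 for Lyz2, and it was lowest for Gpnmb (0.58) and Cd14 (0.39).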
